A study of Mus musculus with 12 samples.

Results

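The miR-322/miR-503/miR-351/miR-542/miR-450 cluster was followed by arm in mouse quadriceps between birth and adulthood. Its members were selected by name and comprise 10 mature miRNAs of the 1966 in the count table, namely both arms of miR-322, miR-503, miR-351 and miR-542 and the 5p arms of miR-450a and miR-450b (mouse names carry the prefix mmu). All 10 passed the filter on low counts, which kept 809 miRNAs. The samples were small RNA libraries of quadriceps muscle, made from untreated wild-type mice (C57BL/6J) on postnatal day 1 (P1), P5, P14 or P90, and each age had 3 of them. The time course served to find out how many of the miRNAs that respond to loss of Mbnl1 are also regulated as muscle develops, and no other genotype was analysed here. All mice were of a single inbred strain and the tissue was taken as a whole, so fewer cells of a type and less RNA per cell cannot be told apart.

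A miRNA hairpin is cut by Drosha and Dicer into a duplex with a 5p and a 3p strand, and an Argonaute protein keeps mainly one of them to repress mRNAs that pair with its seed, bases 2 to 8. miR-322 is the mouse counterpart of human miR-424, and miR-322 and miR-503 belong to the extended miR-15/16 group, known for repressing cell cycle genes and for a part in the cell cycle exit of differentiating myoblasts. miR-351 carries the seed of miR-125, a family known from developmental timing. miR-542 and miR-450 are transcribed from the same stretch of the X chromosome and are less studied in muscle.

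On GRCm38 the 7 hairpins occupy chrX:53047997-53054349 on the minus strand, a span of 6353 bases. In the direction of transcription they are Mir322 (chrX:53054255-53054349), Mir503 (chrX:53053984-53054054), Mir351 (chrX:53053255-53053353), Mir542 (chrX:53049403-53049487), Mir450-2 (chrX:53048299-53048367), Mir450-1 (chrX:53048154-53048244) and Mir450b (chrX:53047997-53048078). The widest gap, 3767 bases, lies between Mir351 and Mir542, and the others are between 54 and 1035 bases. Mir322, Mir503 and Mir351 lie in exons of the noncoding RNA Mir503hg on the same strand, whereas no gene other than the miRNAs themselves overlaps Mir542 or the miR-450 hairpins. miR-450a-5p has an identical mature sequence in Mir450-1 and Mir450-2 and a single entry in the table, so reads of these hairpins cannot be separated.

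The mature sequences of the 10 members, from RefSeq on GRCm38.p6, are given 5′ to 3′ with the seed in capitals, because the seed shows which members could share targets with each other and with miRNAs elsewhere in the genome.
mmu-miR-322-5p: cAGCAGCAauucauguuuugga
mmu-miR-322-3p: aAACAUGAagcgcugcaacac
mmu-miR-503-5p: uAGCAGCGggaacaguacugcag
mmu-miR-503-3p: gAGUAUUGuuuccacugccugg
mmu-miR-351-5p: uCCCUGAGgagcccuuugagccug
mmu-miR-351-3p: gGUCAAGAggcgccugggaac
mmu-miR-542-5p: cUCGGGGAucaucaugucacga
mmu-miR-542-3p: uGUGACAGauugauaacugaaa
mmu-miR-450a-5p: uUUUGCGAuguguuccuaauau
mmu-miR-450b-5p: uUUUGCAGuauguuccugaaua

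No 2 members share all 7 seed bases. The seeds of miR-322-5p and miR-503-5p differ in the last base, and those of miR-450a-5p and miR-450b-5p differ in the last 2. The members are annotated as 21 to 24 bases long, and counts of different miRNAs are not calibrated to molecules. Their GC content spans 31.8% in miR-542-3p, miR-450a-5p and miR-450b-5p to 66.7% in miR-351-3p.

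Depth was 20363495 to 33771032 counts per library over the P1, P5 and P14 groups, with the lowest totals at P14, and 43776307 to 53126984 in the P90 group. Scaling factors (TMM) were 0.247 to 0.384 at P90 and 1.24 to 1.72 at the other ages, so levels in CPM of the scaled library size (normalized CPM) are raised at P90 against the share of all counts. GC content was related to level differently at the later ages. Per 10 GC points, the log2 deviation of a library from the mean rose by 0.379 to 0.563 at P14 and changed by -0.597 to -0.384 at P90, against -0.011 to 0.076 at P1 and P5. Markers of skeletal muscle (4 miRNAs) summed to 138924 to 274111 normalized CPM over the P1, P5 and P14 libraries and to 1450610 to 2370740 at P90, where the small factors lift sums above the total. Sums of endothelial markers (2 miRNAs) were 3353 to 4367 at P1 and 9661 to 12990 at P90, and those of fibroblasts and smooth muscle (4 miRNAs) were 24742 to 28317 and 59156 to 75171. Members of a list did not always move together in P90 versus P1. Among the muscle markers miR-1a-3p and miR-133a-3p rose (log2FC 3.44 and 3.48), miR-206-3p fell (-3.78) and miR-133b-3p did not pass (0.28, edgeR Padj = 0.23). Among the fibroblast and smooth muscle markers miR-143-3p and miR-145a-5p rose (1.87 and 1.82), whereas miR-199a-3p and miR-214-3p fell (-2.21 and -2.81), as the cluster did. Blood markers (4 miRNAs) gave 421 to 599 at P1 and 421 to 558 at P90, and nerve markers (2 miRNAs) 88.5 to 174 and 165 to 193. Among the blood markers miR-451a rose in P90 versus P1 (log2FC 0.51), whereas miR-223-3p and miR-142a-3p fell (-0.80 and -1.34). The fourth, miR-144-3p, did not pass (-0.66, edgeR Padj = 0.11). No marker was at 0 throughout, and the part of these shifts in the cluster's levels was not tested.

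As a whole the cluster fell steeply. At P1 the 10 members held 1.61% ± 0.094 (SD, n = 3) of all counts. The share was 1.14% ± 0.0818 at P5 and 0.804% ± 0.107 at P14, and only 0.0175% ± 0.00234 was left at P90. The libraries of the 4 ages did not overlap. The lowest share at P1 was 1.53% against a highest one of 1.23% at P5, the lowest at P5 was 1.08% against 0.922% as the highest at P14, and the lowest at P14 was 0.714% against 0.0192% as the highest at P90. This order of the libraries was the most extreme of the 15400 possible partitions into 4 ages (exact permutation test, p = 6.49e-05, the smallest p these samples allow). The share needs no scaling factor, but it depends on the other miRNAs in the library, among them miR-1a-3p and miR-133a-3p, which were higher at P90.

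Within the cluster the balance also changed. miR-351-5p and miR-322-3p were the 2 most counted members at P1, P5 and P14. miR-351-5p held 36.3% ± 0.991 of the cluster counts at P1 and 34.6% ± 0.505 at P5, then 54.6% ± 4.14 at P14, and its P90 share was 15.5% ± 4.01. miR-322-3p stayed between mean shares of 30.7% at P1 and 37.4% at P90. miR-322-5p, the arm with the miR-15/16 seed, held 2.12% ± 0.0585 at P1, 2.93% ± 0.308 at P5 and 3.20% ± 0.716 at P14, and reached 24.1% ± 4.42 at P90. In contrast, miR-542-3p and miR-503-5p had 10.2% ± 0.882 and 7.06% ± 0.347 at P1 and were lowest at P14, with 2.03% ± 0.554 and 1.94% ± 0.381. miR-450a-5p ranged from 10.4% to 12.4% over the P1 libraries and averaged 4.22% ± 0.845 at P14. At P90 the shares of miR-450a-5p, miR-503-5p and miR-542-3p were higher again, at 10.7% ± 2.43, 5.33% ± 0.502 and 3.86% ± 0.383. These shares were not adjusted for the GC trend of the libraries, and its part in them was not tested.

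**Figure D1:**
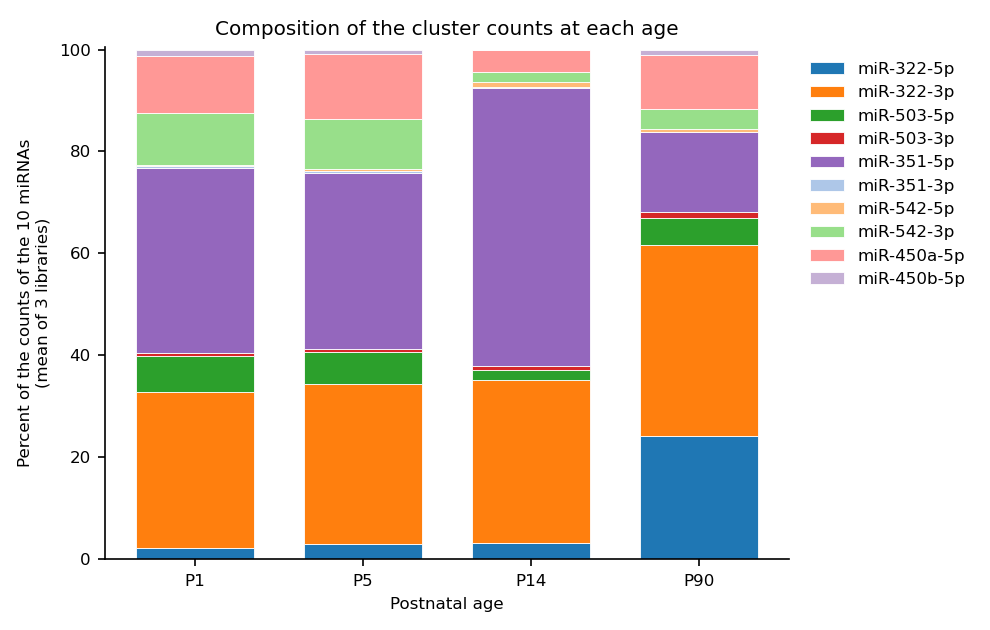
Percent of the counts of the 10 members that each member held (vertical axis), as the mean of 3 libraries at P1, P5, P14 and P90. miR-351-5p widens to 54.6% at P14 and narrows to 15.5% at P90, where miR-322-5p reaches 24.1%. The shares are not adjusted for the GC trend of the libraries.

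All 10 members differed across the 4 ages (edgeR quasi-likelihood F-test with Benjamini-Hochberg adjustment over 809 miRNAs, Padj under 0.05), as did 72.4% of all miRNAs tested. In P90 versus P1 all 10 were lower with no overlap between libraries. Over all miRNAs tested 66.4% were called in this comparison and 41.2% were called lower, and 44.3% were lower with no overlap. The median log2 fold change (log2FC) of the members was -4.45, with a range from -5.94 to -0.72, against -0.72 over all miRNAs tested. Besides the call across the ages, mean normalized CPM was lower at each successive age for 8 members, and 16.6% of the miRNAs tested met both conditions. The exceptions were miR-322-5p and miR-542-5p. The count of 8 depended on the scaling. miR-450a-5p was level in P5 versus P1 (log2FC -0.00094, and 0.045 with RLE factors). miR-351-5p had a log2FC of 0.16 in P14 versus P5 with library totals alone. With upper-quartile factors, under which the median of all miRNAs tested rose above 0, miR-322-5p was the 1 member higher at P90. The steps between successive ages were unequal.

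**Figure D2:**
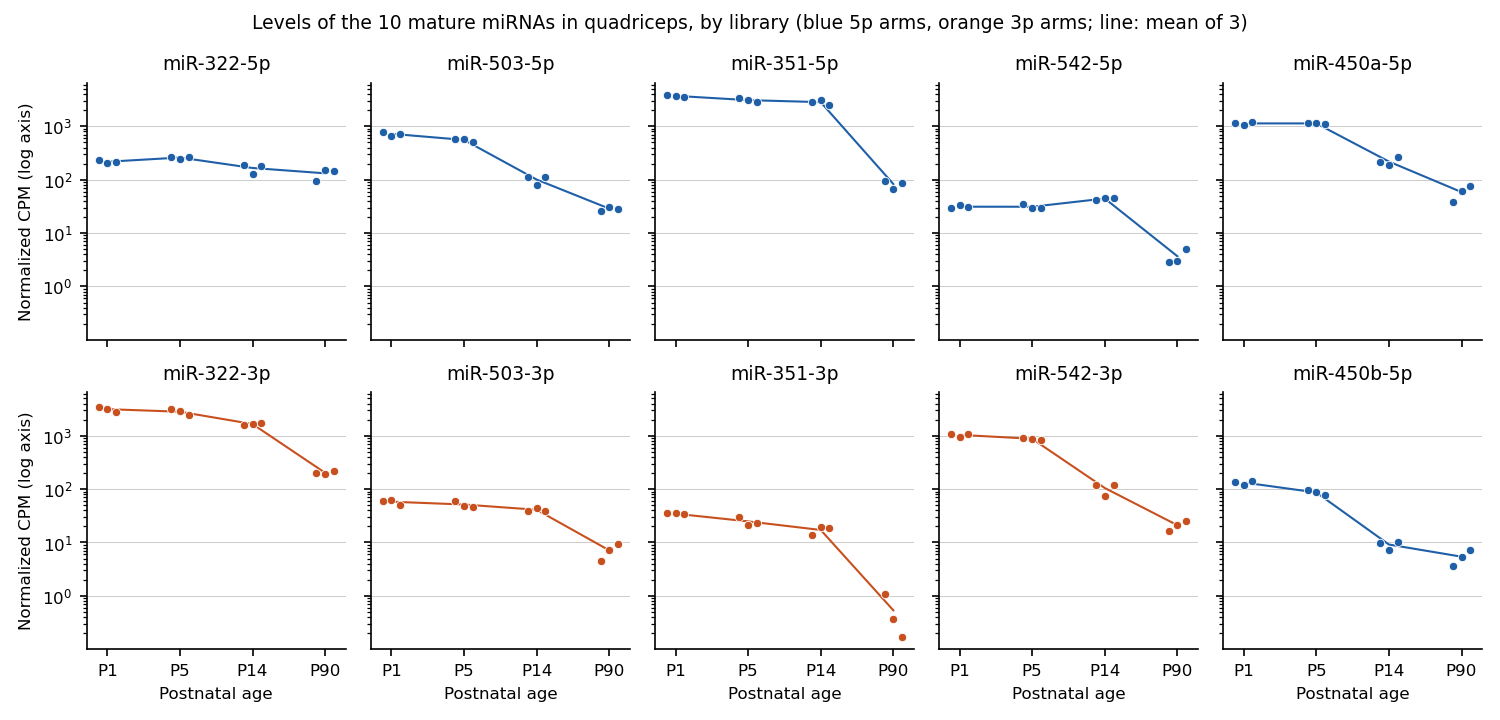
Normalized CPM (log axis) of each member in the 12 libraries by postnatal age, with lines through the means of 3 libraries, 5p arms in blue and 3p arms in orange. All 10 members are lower at P90 than at P1, miR-322-5p least, and miR-503-5p, miR-542-3p, miR-450a-5p and miR-450b-5p already drop at P14.

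miR-322-3p is the arm of Mir322 that was counted most. Its level was 3424, 3189 and 2824 normalized CPM at P1 and 3110, 2850 and 2488 at P5, and the libraries of these ages overlapped. It was 1585, 1633 and 1742 at P14 and 197, 190 and 217 at P90, below all younger libraries at each step. The fall from P14 to P90 was 8.21-fold (log2FC -3.04, SE 0.13, edgeR Padj = 1.2e-11), and that from P1 to P90 was 15.6-fold (log2FC -3.97, SE 0.14, edgeR Padj = 8.9e-13).

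The other arm of the same hairpin, miR-322-5p, changed far less on this scale. It read 231, 207 and 212 normalized CPM at P1, 267, 245 and 268 at P5, 190, 127 and 180 at P14 and 93.7, 154 and 147 at P90, and the P90 and P14 libraries overlapped. The P14 level was lower than that of P5 (log2FC -0.65, SE 0.19, edgeR Padj = 0.012), a call that was lost with library totals (-0.39), upper-quartile factors (-0.37) and GC removal (-0.40). The P90 level did not pass against P14 (log2FC -0.33, SE 0.19, edgeR Padj = 0.15), and P90 against P1 gave -0.72 (SE 0.19, edgeR Padj = 0.0036). This small difference depended on the scaling. With RLE size factors it was -0.38 and lost the call (edgeR Padj = 0.096), in DESeq2 it was -0.40 (DESeq2 Padj = 0.081), without P5 replicate 2 it was -0.48 (edgeR Padj = 0.055), and with upper-quartile factors it reversed to 1.16. As a share of all counts, miR-322-5p went from 340 ± 10.3 CPM of the unscaled total at P1 to 42.3 ± 10.6 at P90.

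miR-503-5p, the close relative of miR-322-5p in seed, fell more between P5 and P14 than after P14 on the normalized scale. With library totals alone the order was the reverse, with log2FC of -2.21 from P5 to P14 and -4.03 from P14 to P90. Its normalized CPM was 785, 672 and 712 at P1, 578, 579 and 510 at P5, 111, 80.3 and 111 at P14 and 26.3, 31.1 and 28.7 at P90. No library of an age reached into the range of the next one. The step from P5 to P14 was 5.53-fold (log2FC -2.47, SE 0.16, edgeR Padj = 2.2e-08), and that from P14 to P90 was 3.50-fold (log2FC -1.81, SE 0.15, edgeR Padj = 4.1e-08). Its 3p arm, miR-503-3p, had a different course. It averaged 58.1 ± 5.95 normalized CPM at P1, 51.4 ± 6.74 at P5 and 41.0 ± 3.28 at P14, with a log2FC of -0.33 (SE 0.21, edgeR Padj = 0.24) from P5 to P14, and then fell to 7.12 ± 2.43 at P90 (log2FC -2.53, SE 0.23, edgeR Padj = 8.2e-08).

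miR-351-5p, with the miR-125 seed, was the member with the highest mean count at P1. It stood at 3912, 3772 and 3469 normalized CPM at P1, 3395, 3051 and 2822 at P5, 2824, 3126 and 2552 at P14 and 96.2, 67.2 and 85.0 at P90. The P5 and P14 libraries overlapped (log2FC -0.12, SE 0.14, edgeR Padj = 0.52, and 0.16 with library totals alone), whereas the P90 libraries were far below all others. From P14 to P90 it fell 34.2-fold (log2FC -5.10, SE 0.17, edgeR Padj = 8.2e-13). miR-351-3p was the far less counted arm and followed a like course. Its means were 34.6 ± 0.915, 24.8 ± 4.97 and 17.2 ± 2.94 normalized CPM at P1, P5 and P14, with no call between P5 and P14 (log2FC -0.53, SE 0.28, edgeR Padj = 0.14). At P90 it was counted 18, 7 and 2 times in the 3 libraries, so its log2FC of -4.93 from P14 to P90 (SE 0.38, edgeR Padj = 9.6e-09) rests on few reads.

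miR-542-3p, the more counted arm of Mir542, gave one of the largest falls between P5 and P14. Normalized CPM was 1084, 944 and 1086 at P1, 917, 887 and 824 at P5, 119, 74.3 and 121 at P14 and 16.5, 21.4 and 25.2 at P90, with no overlap between any of the ages. The P14 level was 8.37-fold below that of P5 (log2FC -3.06, SE 0.20, edgeR Padj = 2.6e-08), and P90 was another 4.98-fold lower (log2FC -2.32, SE 0.20, edgeR Padj = 4.2e-08). The opposite arm did the reverse between P5 and P14. miR-542-5p read 29.0, 34.0 and 30.4 normalized CPM at P1, 34.4, 29.1 and 29.8 at P5, 42.4, 45.6 and 45.0 at P14 and 2.91, 3.02 and 5.08 at P90. All P14 libraries were above those of P5 (log2FC 0.51, SE 0.19, edgeR Padj = 0.04), the only rise with a call in the cluster. It lost the call with RLE factors (0.44), without the filter on low counts (0.40) and without any single library of P1, P5 or P14 (0.45 to 0.56), and after removal of the GC trend the log2FC was 0.05. From P14 to P90 miR-542-5p fell 12.2-fold (log2FC -3.61, SE 0.22, edgeR Padj = 5.6e-10).

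The miR-450 hairpins lie last in the cluster. miR-450a-5p was level between P1, at 1139, 1044 and 1215 normalized CPM, and P5, at 1176, 1138 and 1082. It then dropped to 210, 184 and 260 at P14 and 38.1, 61.8 and 75.8 at P90. The changes were -2.37 (SE 0.21, edgeR Padj = 4.1e-07) and -1.90 (SE 0.21, edgeR Padj = 8.6e-07) on the log2 scale. miR-450b-5p had the largest fall of the cluster from P5 to P14, from 95.5, 87.9 and 76.2 to 9.94, 7.29 and 10.2 normalized CPM (9.45-fold, log2FC -3.24, SE 0.23, edgeR Padj = 4e-08). At P90 it read 3.69, 5.41 and 7.16 normalized CPM, a log2FC of -0.77 from P14 (SE 0.22, edgeR Padj = 0.0077). This last value depended on the processing. The call was lost with RLE factors (-0.40), with DESeq2 (-0.41), with only the 2 ages in the fit (-0.45) and without P5 replicate 2 (-0.53), and the sign turned with upper-quartile factors (0.79). The fall was larger with library totals (-3.03) and after removal of the GC trend (-2.23).

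The 3 remaining arms of these hairpins in the table are not among the 10 members, and they fell too. From P5 to P14 the log2FC was -2.42 for miR-450a-1-3p, -1.27 for miR-450a-2-3p and -1.20 for miR-450b-3p, and from P14 to P90 it was -1.62, -2.21 and -2.66, with edgeR Padj under 0.05 for all 3 in both steps. None passed in P5 versus P1. After removal of the GC trend their log2FC, in the same order, was -0.62, -1.03 and -0.46 from P5 to P14. From P14 to P90 it was then -3.31, -2.89 and -3.84. All of these kept edgeR Padj under 0.05.

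The steps were compared over the 10 members. Between P1 and P5 no member passed in edgeR, against 4.45% of all miRNAs tested. At an unadjusted p under 0.05 there were 2, miR-503-5p (log2FC -0.38, 95% confidence interval -0.70 to -0.06) and miR-450b-5p (-0.62, -1.06 to -0.18), and DESeq2 called 1. The members' median log2FC was -0.21, against 0.0067 over all miRNAs tested.

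Between P5 and P14 the cluster split. A call was made for 7 members, with 6 lower and 1 higher, against backgrounds of 26.3% for a lower and 18% for a higher call and 44.4% for either. Libraries did not overlap for 8 that were lower at P14 and 1 that was higher, as for 31.4% and 23% of all miRNAs tested. miR-503-5p, miR-542-3p, miR-450a-5p and miR-450b-5p had log2FC between -3.24 and -2.37, miR-322-3p and miR-322-5p had -0.77 and -0.65, and miR-542-5p was higher. miR-503-3p, miR-351-5p and miR-351-3p did not pass in edgeR, and DESeq2 called 8 members, with miR-351-3p added (log2FC -0.61, DESeq2 Padj = 0.019). miR-351-3p was also called in edgeR without the filter on low counts (-0.64) and without P90 replicate 1 (-0.57). The median was -0.71, against -0.07 over all miRNAs tested. The 3 AU-rich members, miR-542-3p, miR-450a-5p and miR-450b-5p, were among the 4 with the largest falls, whereas miR-503-5p, the fourth, has a GC content of 56.5%. Across the 10 members the Pearson r of GC content with the log2FC was 0.69 in this step, given as a description because the members share libraries and GC is related to level at P14. Over the 309 miRNAs with a known GC content and a mean of at least 10 normalized CPM it was 0.40.

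Between P14 and P90 the fall was general. It passed for 9 members, all lower, against a background of 36.7% for a lower call and 59.1% for either direction. The libraries of these 9 did not overlap, as for 37.1% of all miRNAs tested in this direction. The median log2FC was -2.43, against -0.55 over all miRNAs tested. miR-351-5p and miR-351-3p, which had not passed in the previous step, changed most, by -5.10 and -4.93, and miR-450b-5p changed least among those with a call. This order changed when the GC trend was removed. With upper-quartile factors only 6 members were called lower, miR-322-5p (1.24) and miR-450b-5p (0.79) were called higher, and miR-503-5p (-0.23) and miR-450a-5p (-0.34) lost their calls. Here the r of GC content with the log2FC across the 10 members was -0.76, the reverse of the previous step, and over the full course, P90 versus P1, it was -0.21. Over the 309 miRNAs it was -0.35 in P90 versus P14 and -0.17 in P90 versus P1.

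**Figure D3:**
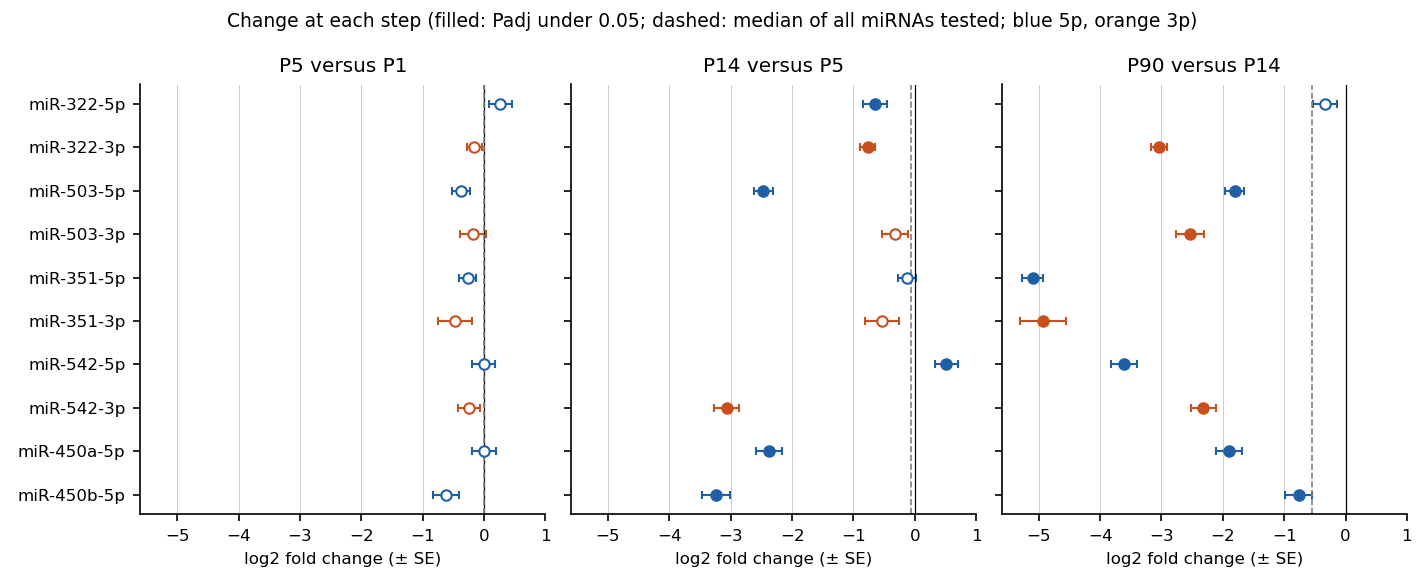
log2FC of each member (horizontal axis) with SE as bars in the 3 consecutive steps, filled where Padj was under 0.05, with the median of all 809 miRNAs tested as a dashed line. The points stay near 0 in P5 versus P1, spread from -3.24 to 0.51 in P14 versus P5 and lie between -5.10 and -0.33 in P90 versus P14.

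When the GC trend of each library was removed, the members moved closer together. For P14 versus P5 the log2FC was then -2.92 for miR-503-5p, -1.97 for miR-450b-5p, -1.80 for miR-542-3p and -1.10 for miR-450a-5p, still lower with edgeR Padj under 0.05. miR-351-5p, miR-351-3p and miR-503-3p gained a call, at -0.44, -0.76 and -0.75, while miR-322-5p lost it, at -0.40 (edgeR Padj = 0.068). Over all 809 miRNAs tested, 320 were called in P14 versus P5 after removal, in either direction. Before removal 26.3% had a lower call there. For P90 versus P14, 36.7% of all miRNAs tested had a lower call before removal. After it all 10 members were lower with a call in this step, and the r across members was -0.0022. The largest falls were then those of miR-542-3p (-3.77), miR-351-5p (-3.66), miR-450a-5p (-3.38) and miR-351-3p (-3.16), and the smallest were those of miR-503-5p (-1.06) and miR-322-5p (-1.02). In P90 versus P1 all 10 were also lower, between -5.79 for miR-542-3p and -1.20 for miR-322-5p. Before removal 41.2% of all miRNAs tested had a lower call in that comparison. The r across members after removal was 0.28 in P14 versus P5 and 0.17 in P90 versus P1. The trend was fitted on the 309 miRNAs with a mature sequence at hand and a mean of at least 10 normalized CPM. It was then removed from the 85.0% of the miRNAs tested that had a sequence, and the rest were left unchanged.

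**Figure D4:**
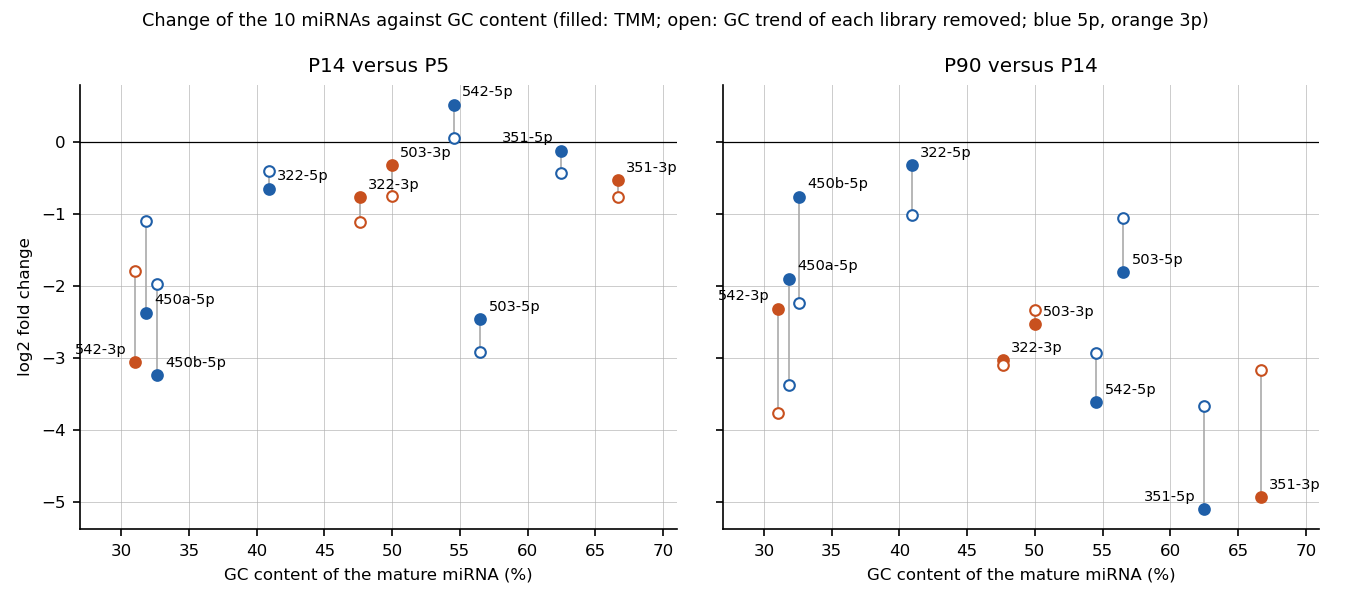
log2FC of each member against the GC content of its mature sequence for P14 versus P5 and P90 versus P14, before (filled) and after (open) removal of the GC trend of each library. The 3 members at 31.8% GC are drawn side by side, and they rise from log2FC of -3.24 to -2.37 to values between -1.97 and -1.10 in P14 versus P5.

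Ratios of 2 counts within a library are free of the scaling factor, and 10 were compared between the ages with an exact permutation test over 15400 partitions, adjusted over the 10. All but the miR-351 arms passed. How often ratios of other miRNAs pass was not tested, and 72.4% of all miRNAs tested differed singly across the ages in edgeR. The ratios between hairpins all have miR-322-5p as numerator, so they are not independent. In Mir322 the 3p arm was counted 14.5-fold as often as the 5p arm at P1, 10.8-fold at P5 and 10.13-fold at P14, but only 1.57-fold at P90 (exact permutation test, Padj = 0.00146). The 5p share of the arms rose accordingly from 6.46% ± 0.456 at P1 to 39.1% ± 6.28 at P90, with 32.3% as the lowest P90 library and 10.7% as the highest of the younger ones. In GC content these arms are close, with 40.9% and 47.6%, and the 5p arm's log2FC for P90 versus P1 exceeded that of the 3p arm by 3.25 before and 3.21 after removal of the GC trend. Its division between the steps did change. In P90 versus P14 the difference went from 2.71 to 2.08, and in P14 versus P5 from 0.12 to 0.71.

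Mir503, Mir542 and Mir450b shifted at P14. For Mir503 the 5p arm was 12.5-, 10.8-, 2.43- and 4.18-fold the 3p arm at P1, P5, P14 and P90 (exact permutation test, Padj = 0.000278). The 5p share was 92.5% ± 0.936 at P1 and 70.6% ± 5.59 at P14. For Mir542 the 3p arm was 33.3- and 28.2-fold the 5p arm at P1 and P5, 2.31-fold at P14 and 5.80-fold at P90 (exact permutation test, Padj = 0.00026). The 5p share of Mir542 rose from 3.43% ± 0.224 at P5 to 30.5% ± 6.55 at P14. For Mir450b the 3p arm was 2.42-, 3.71-, 15.2- and 4.08-fold the 5p arm (exact permutation test, Padj = 0.000278). The arms of Mir542 differ in GC content by the widest margin, 54.5% and 31.8%, and removal of the GC trend took the difference of their log2FC in P14 versus P5 from 3.58 to 1.86. In P90 versus P14 it turned this difference from -1.29 to 0.84, so the peak of the 5p share at P14 was not seen after removal. For Mir503, with arms of 56.5% and 50%, the difference in P14 versus P5 was -2.14 before and -2.17 after. For Mir450b, with 31.8% and 36.4%, the difference in P14 versus P5 was -2.04 and -1.51.

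In Mir351 the 5p arm prevailed at every age, by 107-fold at P1, 126-fold at P5, 166-fold at P14 and 182-fold at P90. The ages did not differ for this ratio beyond the spread (exact permutation test, Padj = 0.399), which was widest at P90, where miR-351-3p had few counts. Without P90 replicate 1, the library with 18 counts, the ratio passed (exact permutation test, Padj = 0.0189).

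**Figure D5:**
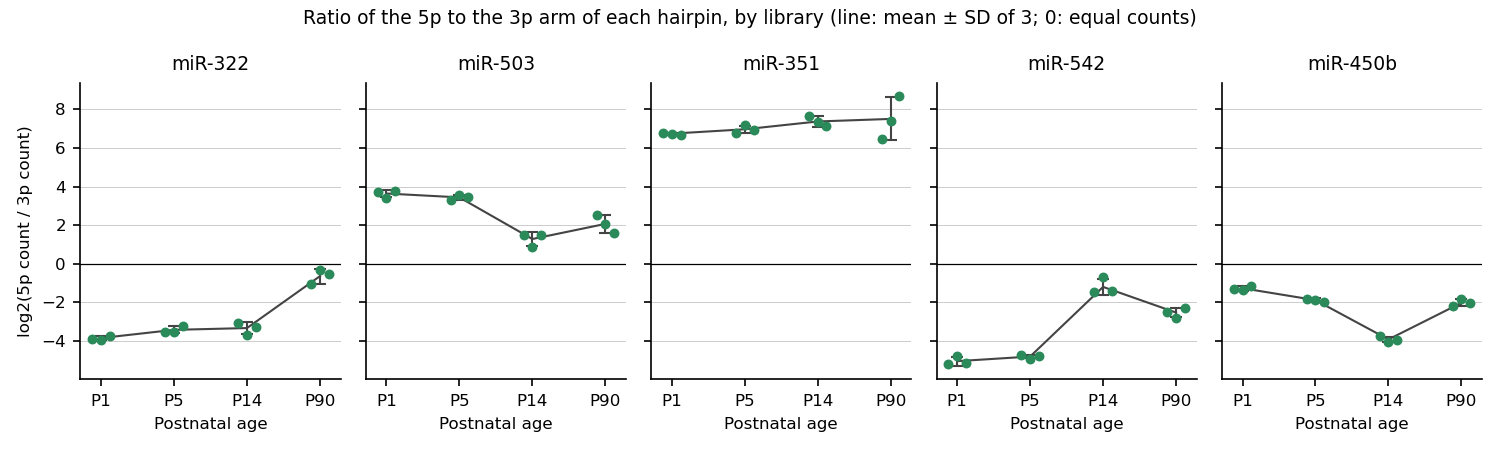
log2 ratio of 5p to 3p counts of 5 hairpins in the 12 libraries (points), with the mean and SD of 3 libraries at each age; 0 marks equal counts. The miR-322 ratio climbs at P90, those of miR-503 and miR-450b are lowest at P14, that of miR-542 is highest at P14 in these counts, before any removal of the GC trend, and that of miR-351 lies between 6.45 and 8.67 in every library.

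Against the other 5p or dominant arms of the cluster, miR-322-5p gained. It was counted 0.300-fold as often as miR-503-5p at P1, 0.468-fold at P5, 1.64-fold at P14 and 4.49-fold at P90, and no library of one age overlapped another (exact permutation test, Padj = 0.000162). The ratio to miR-542-3p rose likewise from 0.209 to 6.19, that to miR-450a-5p from 0.191 to 2.28 and that to miR-450b-5p from 1.63 to 24.4, all with the same Padj. Relative to miR-351-5p it was 0.0582, 0.0843 and 0.0577 at P1, P5 and P14 and 1.57 at P90 (exact permutation test, Padj = 0.00173). At P90 miR-322-5p was therefore the most counted of these 6 arms on average, although it trailed miR-503-5p, miR-351-5p, miR-542-3p and miR-450a-5p at P1. These ratios were not adjusted for the GC trend of the libraries. After its removal, miR-322-5p and miR-503-5p fell alike in P90 versus P14 (log2FC -1.02 and -1.06, against -0.33 and -1.81 before). miR-351-5p, miR-542-3p, miR-450a-5p and miR-450b-5p still fell more than miR-322-5p in this step, with log2FC from -3.77 to -2.23.

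Other miRNAs with the seed of a 5p member were examined next, because they could address the same targets. The search covered the 1675 of the 1966 miRNAs whose mature sequence was at hand, so counts of relatives and shares of a seed refer to these. Among them the seed of miR-322-5p occurs in 9 others, of which 5 were tested, and that of miR-351-5p in 4, of which 2 were tested. The 4 relatives with the highest mean level are shown with the shared seed in capitals.
mmu-miR-16-5p: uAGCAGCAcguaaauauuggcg
mmu-miR-15b-5p: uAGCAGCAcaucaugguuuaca
mmu-miR-125a-5p: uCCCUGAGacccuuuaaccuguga
mmu-miR-125b-5p: uCCCUGAGacccuaacuuguga

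The relatives of miR-322-5p moved mostly upward while it did not. Of the 5 tested, 4 were higher and 1 lower in P90 versus P1, with a median log2FC of 1.60 against -0.72 for miR-322-5p. Over all miRNAs tested 25.2% were called higher in this comparison. miR-16-5p changed by 1.60 (edgeR Padj = 2.7e-08), and miR-15b-5p was the one that was lower, by -0.66 (edgeR Padj = 0.00038). Of the counts with this seed, miR-322-5p held 10.4% ± 0.327 at P1 and 10.6% ± 0.978 at P5, and its share was 5.78% ± 0.695 at P14 and 2.38% ± 0.476 at P90.

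For miR-351-5p the contrast was wider. Its relatives miR-125a-5p and miR-125b-5p were higher in P14 versus P5 (log2FC 0.95 and 0.92) and lower in P90 versus P14 (-0.67 and -0.62). Over P90 versus P1 they changed by 0.39 (edgeR Padj = 0.022) and 0.37 (edgeR Padj = 0.028), while miR-351-5p fell by 5.49 on the log2 scale. It held 40.5% ± 2.12 of these counts with the seed CCCUGAG at P1 and 34.6% ± 1.73 at P5. By P14 this was 20.4% ± 1.56, and at P90 it was 1.15% ± 0.128. The seed of miR-542-5p occurs in 1 other miRNA, which was not tested, and no relative with the seed of miR-503-5p, miR-450a-5p or miR-450b-5p was found among the sequences at hand.

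The members resembled each other in profile to different degrees. Over the 12 libraries, the Pearson r of a member's log2 normalized CPM with the mean of the other members ranged from 0.82 for miR-322-5p and 0.84 for miR-542-5p to 0.99 for miR-322-3p. Among 338 miRNAs outside the cluster with a mean of at least 10 normalized CPM, the profiles most like the mean of the members were those of miR-1983 (r = 0.998), miR-382-3p (0.997), miR-543-3p (0.994), miR-335-5p (0.994) and miR-136-3p (0.993). Their log2FC in P90 versus P1 lay between -7.48 for miR-543-3p and -4.59 for miR-136-3p, all below the members' median of -4.45. The value of miR-543-3p was also below that of the lowest member, -5.94. These r values describe libraries that share depth, scaling and age groups.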

How the data were processed

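Small RNA libraries were made from total RNA of quadriceps with a NEXTflex kit, 3 libraries per age. According to the study's methods and the submitters' processing notes, the authors kept reads of 10 to 35 nt (cutadapt 1.18), aligned them to GRCm38 (Bowtie2 2.4.1) and counted them per mature miRNA of miRBase release 22 (featureCounts 2.0.1). The deposited values are raw counts per library. Strand and multi-mapping options are not given in the sources used here. P values reflect the spread between the 3 libraries of an age, and replicates differed by more than sampling noise (chi-square per degree of freedom 155 to 1056).

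Here counts were filtered with filterByExpr, scaled by TMM and fitted in edgeR 4.0.16 (R 4.3.3) as a single quasi-likelihood model of the 12 libraries; Padj is the Benjamini-Hochberg value over 809 miRNAs, called under 0.05. The scripts were tested on simulated counts. Log2 ratios of counts used a pseudocount of 0.5. The GC trend was a lowess fit (span 0.5) per library. Alternatives were RLE, upper-quartile and library-total scaling, totals without miR-1, DESeq2 1.42.0, no filter, GC removal, a replicate block, fits of 2 ages and leaving out each library. Intervals cover counting and library spread only, since reads carried no molecular identifiers in the counts used. Named miRNAs are all members, the other arms of their hairpins, up to 4 seed relatives and the 5 most similar profiles. Members, lists and tests were chosen with earlier results of these data known. Sequences and positions are from RefSeq, and host genes from GENCODE vM39 by name, exon and strand.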

Additional observations from a re-analysis of the deposited data

How the results depend on the processing

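Scaling shifted all log2FC together. For P90 versus P1 the median over all miRNAs tested was -0.72 with TMM, -0.37 with RLE, -2.97 with library totals, -1.06 with totals without miR-1 and 1.177 with upper-quartile factors, and the members' median was -4.45, -4.11, -6.76, -4.92 and -2.58. In the main fit 72.4% of all miRNAs tested were called across the ages and 66.4% in P90 versus P1. The shares were 44.4% for P14 versus P5 and 59.1% for P90 versus P14. The members with a call across the ages and in P90 versus P1 numbered 10 and 9 to 10 when each library was left out, in P14 versus P5 6 to 8 and in P90 versus P14 8 to 10. In P5 versus P1 the count was 0 to 1 on leaving out a library (miR-450b-5p, -0.63, without P90 replicate 1), 2 with library totals or with only the 2 ages in the fit, and 1 with totals without miR-1, with DESeq2 and with no filter.

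Direction reversed in a few cases. In P5 versus P1 these were miR-322-5p with library totals (-0.035), miR-542-5p with RLE (0.043), upper quartile (0.034), DESeq2 (0.033), GC removal (0.0033) and without P1 replicate 2, P5 replicate 2 or P5 replicate 3 (lowest to highest of all left-out fits -0.086 to 0.045, with 0.020 without P5 replicate 3), and miR-450a-5p with RLE (0.045), upper quartile (0.038), DESeq2 (0.035), GC removal (0.023) and without P1 replicate 3 or P5 replicate 3 (-0.077 to 0.038). In P14 versus P5 miR-351-5p reversed with library totals (0.16) and upper quartile (0.15). In P90 versus P14 miR-322-5p reversed with RLE (0.042), DESeq2 (0.035) and upper quartile (1.24), and miR-450b-5p with upper quartile (0.79). In P90 versus P1 miR-322-5p reversed with upper quartile (1.16). The cause was not tested.

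The labels number the replicates and name no pairing. Over 18 same-numbered pairs the r of deviations from the age mean was -0.344 to 0.237, with 6 above 0.1. Differently numbered pairs were not compared, so these values cannot decide whether the libraries were paired. With the replicate block, 10 members were called across the ages, 0 in P5 versus P1, 6 in P14 versus P5, 9 in P90 versus P14 and 10 in P90 versus P1. Calls were common outside the cluster too, with 72.4% of all miRNAs tested called across the ages in the main fit. miR-450a-5p reversed to 0.0087 in P5 versus P1 under the block, and miR-542-5p lost its call in P14 versus P5 (0.51, edgeR Padj = 0.054). At P90 depth limited miR-351-3p, with 2 to 18 counts per library.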
